A study of Mus musculus with 17 samples.

Results

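Early remyelination was measured at 5.5 weeks, after 5 weeks of dietary cuprizone and 0.5 weeks back on normal chow. Of the 17 libraries of the series, the 6 whose titles give 5.5 weeks were taken, 3 from cuprizone mice and 3 from mock mice. Mock library 2 repeated mock library 1, so 5 libraries were compared, cuprizone 1, 2 and 3 against mock 1 and 3. All mice of both groups were male, carried GFAP-Cre on 1 allele (GFAP-Cre+/-) and 1 tagged allele of the ribosomal protein gene Rpl22 (RPL22HA/wt), and were 8 to 9 weeks old at the start. Cuprizone made up 0.2% of the chow by weight, and mock mice of matched age stayed on a normal diet throughout. The corpus callosum was dissected, its tagged ribosomes were pulled down through the HA tag, and the RNA bound to them was sequenced. The labels put all 6 libraries in batch 2.

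Cuprizone is a copper chelator that kills oligodendrocytes, the cells that make myelin in the brain, and leaves the corpus callosum demyelinated. Once the diet is stopped, oligodendrocyte precursors differentiate and wrap the bare axons again, while microglia clear myelin debris. Astrocytes of the damaged tract become reactive: they enlarge, build more intermediate filaments, and secrete complement proteins, protease inhibitors and cytokines. The GFAP promoter drives Cre in astrocytes, and can also be active in neural stem cells whose offspring then carry the tag. The line of GFAP-Cre mice and its activity outside astrocytes are not given in the sources used here, and Rpl22 transcript counts do not report on recombination or on the tag. Total RNA of the same tissue was not analysed here, so the enrichment of astrocyte transcripts was not tested.

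The 5 libraries held between 22115776 and 29698113 counts each. Among 7955 genes with 500 or more counts in mock 1 and mock 2, 96.4% of the values of mock 2 lay 1 to 10 counts above mock 1, whereas in all other pairs of the 5 tested libraries at most 1.94% did. Over genes with 20 or more counts in the pair, mock 1 and mock 2 differed by no more than about sampling noise (mean chi-square 0.964 per gene). Because of the 96.4%, they were counted as 1 sample, represented by mock 1. Cuprizone 1 and cuprizone 3 were closer to each other than to cuprizone 2, with 5 genes at least 2-fold apart among 11035 genes, against 46 and 47 genes for the pairs with cuprizone 2. They still differed beyond sampling noise (mean chi-square 9.07). The first principal component held 41% of the variance and separated the groups. The Rpl22 level was 30.9 ± 1.69 CPM in mock and 31.2 ± 1.96 CPM in cuprizone (mean ± SD, n = 2 mock and n = 3 cuprizone libraries). CPM are counts scaled to a common library size, here with TMM, which assumes that most genes do not differ between libraries. Astrocyte transcripts were abundant, with Aldoc at 5054 ± 691 CPM in mock and 5306 ± 440.5 CPM in cuprizone and Slc1a2 at 1832 ± 123 CPM in mock and 1802 ± 264 CPM in cuprizone. Transcripts of other cells were abundant too, among them the myelin gene Mbp at 6229.9 ± 886 CPM in mock and 8697 ± 692 CPM in cuprizone and the neuronal gene Snap25 at 5073 ± 526 CPM in mock and 4786 ± 429 CPM in cuprizone.

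More genes rose than fell. The edgeR quasi-likelihood test, two-sided and adjusted by Benjamini-Hochberg over 16086 genes, called 236 genes at an adjusted p under 0.05 (1.47%), of which 173 rose (1.08%) and 63 fell (0.392%). At an unadjusted p under 0.05 there were 1755 genes. The genes that rose had a median log2 fold change of 1.34, and 117 of them differed at least 2-fold and 44 at least 4-fold. Those that fell moved less, with a median of -0.80, 25 at least 2-fold and 6 at least 4-fold. The median over all genes tested was 0.0021. The risen genes were mostly of low level, with a median of 8.9 CPM in the cuprizone group, whereas the fallen genes had a median of 37.8 CPM in mock. Summed over the risen genes, the level was 5950 and 5541 CPM in mock and 15000, 14450 and 12660 CPM in cuprizone, with Gfap as the largest single gene. Without Gfap the sums were 4774 and 4425 CPM in mock and 8939, 9190 and 7716 CPM in cuprizone. Cuprizone 3 had the lowest of the 3 cuprizone values in 110 of the 173 risen genes and the highest in 26 (15%). Over all genes tested it was the highest in 30.5%. The values of the groups did not overlap in 4503 of the 16086 genes (28%). The test favours genes with such a gap. Where called genes are said below to lie apart in every library, this describes them and adds nothing to the call.

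**Figure D1:**
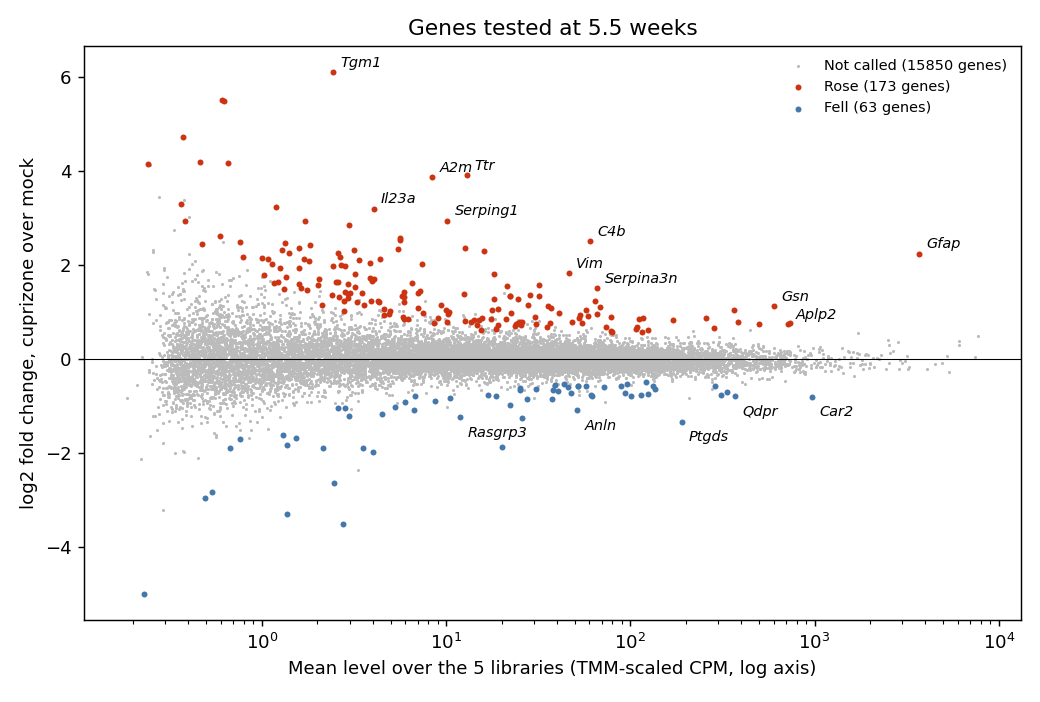
Each point is 1 of the 16086 genes tested; the x axis is its mean level over the 5 libraries in TMM-scaled CPM on a log axis, and the y axis the log2 fold change of cuprizone over mock. Red points are the 173 genes that rose and blue points the 63 that fell, with 16 genes named. Gfap, at a mean of 3714 CPM, lies far to the right of the other genes that rose at least 4-fold.

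With 2 mock libraries, the calls depended on each of them. Fits that left out 1 library, called left-out fits here, gave 57 risen and 31 fallen genes without mock 1, and 49 and 16 without mock 3. Leaving out cuprizone 1, 2 or 3 gave 113, 189 and 155 risen genes and 17, 85 and 24 fallen genes. In total 33 risen and 6 fallen genes were called in every one of these 5 fits and in every other alternative that tested them, and the descriptions that follow lead with these. Where a called gene given with its values was no longer called under an alternative, the adjusted p it then had is in brackets, from edgeR unless DESeq2 or limma-voom is named. The fit with a replicate block is kept to the closing section. Genes were named by a rule, and those outside it, listed with the methods, were chosen after their values were seen. The p-values measure the spread between these libraries, which the labels number as replicates of a group. Bulk libraries of this kind cannot tell apart more cells of a type from more RNA per cell.

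Filament, complement and protease inhibitor genes were among the risen genes with the smallest p-values. Gfap, the intermediate filament protein that marks astrocytes, had 1177 and 1115 CPM in mock and 6066, 5263 and 4947 CPM in cuprizone, in the order mock 1, mock 3 and cuprizone 1, 2, 3 that is kept from here on. It rose 4.74-fold (log2 fold change 2.24 ± 0.13, edgeR adjusted p = 8.59e-06, where ± is the standard error). Vim, the vimentin gene whose product copolymerizes with GFAP in reactive astrocytes, had 17.5 and 19.3 CPM in mock and 60.6, 79.4 and 55.1 CPM in cuprizone and rose 3.53-fold (log2 fold change 1.82 ± 0.17, edgeR adjusted p = 0.00021). Both filament genes were high in all 3 cuprizone libraries, well above the mock pair. C4b, which encodes complement component C4, had 16.2 and 15.6 CPM in mock and 96.3, 93.4 and 81.7 CPM in cuprizone (log2 fold change 2.51 ± 0.13, edgeR adjusted p = 5.07e-06). Serping1, the inhibitor of the C1 proteases that cleave C4, had 2.25 and 1.78 CPM in mock and 17.5, 15.2 and 14.1 CPM in cuprizone (log2 fold change 2.95 ± 0.20, edgeR adjusted p = 2.4e-05). An activating component and an inhibitor of the same complement step thus rose side by side, 5.69-fold and 7.71-fold. Serpina3n, a secreted serine protease inhibitor, had 33.6 and 29.3 CPM in mock and 91, 94.3 and 83.6 CPM in cuprizone (log2 fold change 1.51 ± 0.12, edgeR adjusted p = 9.71e-05). A2m, the broad protease trap alpha-2-macroglobulin, had 1 and 0.817 CPM in mock and 13.2, 14.5 and 12.6 CPM in cuprizone (log2 fold change 3.87 ± 0.21, edgeR adjusted p = 5.07e-06). A2m was close to 1 CPM in mock and above 12 CPM in each cuprizone library, a rise of 14.6-fold.

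Receptors and signals rose beside them. S1pr3, a receptor for sphingosine 1-phosphate, had 3.88 and 3.38 CPM in mock and 21.1, 17.2 and 17.9 CPM in cuprizone and rose 5.16-fold (log2 fold change 2.37 ± 0.17, edgeR adjusted p = 5.54e-05). It was the only called gene of the 14 tested in sphingosine phosphate signalling, where 3 genes were at an unadjusted p under 0.05 and the more abundant receptor gene S1pr1 was 296 ± 8 CPM in mock and 229.8 ± 24.7 CPM in cuprizone. Osmr, the receptor subunit for oncostatin M, had 1.77 and 1.41 CPM in mock and 8.55, 8.26 and 7.33 CPM in cuprizone and rose 5.04-fold (log2 fold change 2.33 ± 0.21, edgeR adjusted p = 0.00021). Il23a, which encodes the p19 subunit of interleukin 23, had 0.762 and 0.594 CPM in mock and 6.11, 7.36 and 5.45 CPM in cuprizone and rose 9.2-fold (log2 fold change 3.20 ± 0.27, edgeR adjusted p = 0.000116). Cxcl5, a chemokine that attracts neutrophils, had 1.66 and 1.82 CPM in mock and 5.64, 5.1 and 5.68 CPM in cuprizone (log2 fold change 1.65 ± 0.21, edgeR adjusted p = 0.00275). In these 4 genes no cuprizone library came near the mock pair. Aspg, an asparaginase gene, had 2.84 and 2.38 CPM in mock and 12.6, 10.1 and 9.02 CPM in cuprizone (log2 fold change 2.02 ± 0.21, edgeR adjusted p = 0.000643). Alox5, the lipoxygenase that starts leukotriene synthesis, had 1 and 0.557 CPM in mock and 3.75, 3.93 and 3.65 CPM in cuprizone (log2 fold change 2.26 ± 0.28, edgeR adjusted p = 0.0026). Tgm1, a transglutaminase that crosslinks proteins, was at 0 and 0.111 CPM in mock and at 3.82, 5.24 and 3.07 CPM in cuprizone, so that no fold is given against so few mock counts (edgeR adjusted p = 0.000306). All called genes of this paragraph and the one before it were called in every left-out fit.

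**Figure D2:**
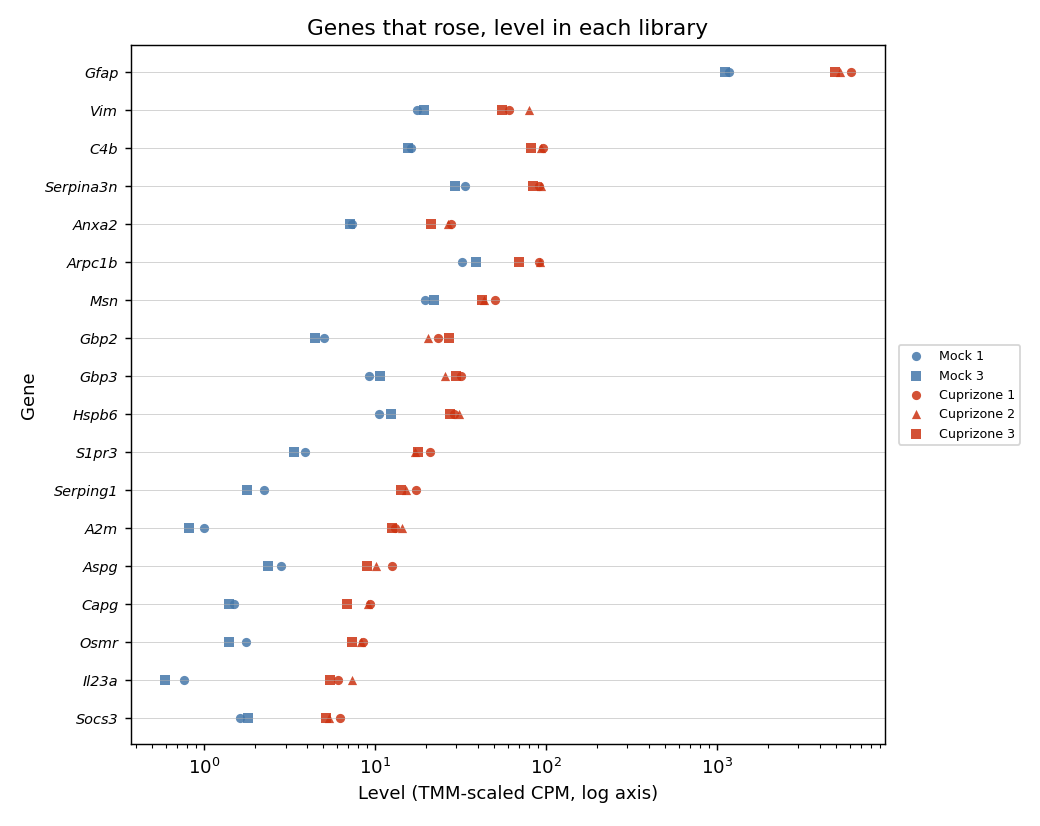
Level of 18 risen genes in each of the 5 libraries, in TMM-scaled CPM on a log axis, with mock libraries in blue and cuprizone libraries in red. In each of the 18 genes the 3 red points lie to the right of both blue points, from Gfap, with a cuprizone mean of 5425 CPM, to Socs3, with 5.63 CPM.

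The rise of Gfap and Vim was not a rise of astrocyte markers at large. Of 15 astrocyte markers tested, Gfap was called and the other 14 were not, and the median log2 fold change of the list was -0.10. Aldoc, the aldolase that marks astrocytes, had a log2 fold change of 0.07 (edgeR adjusted p = 0.89). Slc1a2 and Slc1a3, the glutamate transporters, had log2 fold changes of -0.02 and 0.02. Sox9, a transcription factor of astrocytes, had 421 and 401 CPM in mock and 493, 493 and 410.2 CPM in cuprizone, and was not called (log2 fold change 0.18 ± 0.12, edgeR adjusted p = 0.633). Fgfr3, a fibroblast growth factor receptor of astrocytes, had 123 and 125 CPM in mock and 94, 88.8 and 72.8 CPM in cuprizone and missed the threshold (log2 fold change -0.54 ± 0.12, edgeR adjusted p = 0.0561), though DESeq2 called it. Summed over the 15 markers, the level was 12889 and 13232 CPM in mock and 18240.5, 17739 and 15564 CPM in cuprizone. Without Gfap the sums were 11713 and 12117 CPM in mock and 12174, 12476 and 10618 CPM in cuprizone, so that the rise of the sum lay in Gfap. In the list of 15 intermediate filament genes, Gfap and Vim rose and Prph, the neuronal peripherin, fell. Prph had 8.69 and 6.61 CPM in mock and 4.56, 3.7 and 2.99 CPM in cuprizone (log2 fold change -1.02 ± 0.22, edgeR adjusted p = 0.0407). Prph was no longer called without mock 1, mock 3, cuprizone 2 or cuprizone 3 (0.239, 0.11, 0.059 and 0.132) and under the 1 CPM filter (0.0606), with all 6 libraries (0.259), with the mean of mock 1 and 2 (0.127).

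Interferon-induced genes were another group in which many members rose. The products of the guanylate-binding protein (Gbp) and immunity-related GTPase genes attack the vacuoles of intracellular microbes, and their genes are switched on by interferons through factors of the STAT and IRF families. These bind 2 kinds of site: the interferon-stimulated response element (ISRE), read by complexes that hold an IRF factor, and the gamma-activated site (GAS), read by STAT dimers. RefSeq promoter windows, 250 bases before to 50 after the gene start on GRCm38.p6, were found for 11735 of the genes tested, among them 134 risen and 47 fallen genes. The ISRE was searched on both strands as GAAA, any 2 bases and GAAA, and stood in 2.85% of all windows and in 14.2% of those of the risen genes, 19 in number, and in 0 of 47 windows of fallen genes. The GAS letters TTCNNNGAA stood in 6.77% of all windows, 12.7% of the risen and 8.51% of the fallen. These 2 motifs can overlap each other, and a match describes the letters of the window without showing binding. The motifs were picked after the called genes had been seen.

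The 200 bases before the gene start are printed for 4 risen interferon genes, in lower case on the strand of the gene, with the ISRE letters of either strand in capitals. A match on the opposite strand reads TTTC, 2 bases, TTTC.
Gbp2 (chr3:142620463-142620662, plus strand): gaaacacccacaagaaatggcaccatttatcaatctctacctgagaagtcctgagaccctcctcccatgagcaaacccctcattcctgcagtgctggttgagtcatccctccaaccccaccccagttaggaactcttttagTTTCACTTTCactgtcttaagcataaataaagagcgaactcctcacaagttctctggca
Gbp3 (chr3:142559844-142560043, plus strand): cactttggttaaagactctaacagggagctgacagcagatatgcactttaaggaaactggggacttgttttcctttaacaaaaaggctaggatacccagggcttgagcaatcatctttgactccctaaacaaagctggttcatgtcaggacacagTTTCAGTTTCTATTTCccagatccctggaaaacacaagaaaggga
Ifit3 (chr19:34583329-34583528, plus strand): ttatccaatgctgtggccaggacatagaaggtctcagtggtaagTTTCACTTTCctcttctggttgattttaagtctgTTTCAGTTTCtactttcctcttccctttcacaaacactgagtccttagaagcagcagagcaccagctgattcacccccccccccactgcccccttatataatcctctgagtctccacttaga
Bst2 (chr8:71537473-71537672, minus strand): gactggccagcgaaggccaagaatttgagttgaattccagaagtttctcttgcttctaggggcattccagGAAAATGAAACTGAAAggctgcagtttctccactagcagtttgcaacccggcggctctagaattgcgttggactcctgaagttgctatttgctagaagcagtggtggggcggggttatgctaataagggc
In Gbp2 the single match began 59 bases before the gene start, and the overlapping matches of Gbp3 began 45 and 39 bases before it. Ifit3 and Bst2 also held 2 matches each.

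Among the 16 interferon-induced GTPase genes tested, 7 rose and none fell, and all 16 had a log2 fold change above 0, from 0.76 to 2.31 with a median of 1.23. Gbp2 had 5.02 and 4.49 CPM in mock and 23.3, 20.3 and 27.1 CPM in cuprizone and rose 4.95-fold (log2 fold change 2.31 ± 0.17, edgeR adjusted p = 6.16e-05). Gbp3 had 9.28 and 10.7 CPM in mock and 32, 25.7 and 29.8 CPM in cuprizone and rose 2.92-fold (log2 fold change 1.54 ± 0.15, edgeR adjusted p = 0.000364). Both were called in every left-out fit. Gbp9 had 0.554 and 0.297 CPM in mock and 1.79, 2.12 and 2.26 CPM in cuprizone (log2 fold change 2.25 ± 0.34, edgeR adjusted p = 0.00808). Gbp7 had 11.2 and 12.3 CPM in mock and 21.5, 20.4 and 22 CPM in cuprizone (log2 fold change 0.86 ± 0.14, edgeR adjusted p = 0.00971). Irgm1 had 14.3 and 13.8 CPM in mock and 22.8, 26.2 and 34.9 CPM in cuprizone (log2 fold change 0.99 ± 0.18, edgeR adjusted p = 0.0189). Iigp1 and Ifi47 rose as well, 2.71-fold and 3.37-fold, with edgeR adjusted p = 0.0114 and 0.025. Igtp, at 11.4 and 9.39 CPM in mock and 18.2, 23.4 and 40.8 CPM in cuprizone, missed the threshold (edgeR adjusted p = 0.0662). Cuprizone 3 was the highest cuprizone library in 11 of these 16 genes (68.8%), in 26 of the 173 risen genes (15%) and in 30.5% of all genes tested. The sum over the 16 genes was 65.3 and 68.1 CPM in mock and 151, 149.7 and 202 CPM in cuprizone. Gbp9 was no longer called without mock 3 (0.098). Gbp7 was no longer called without mock 1 or mock 3 (0.0926 and 0.0589). Irgm1 was no longer called without mock 1 or mock 3 (0.123 and 0.158). Iigp1 was no longer called without mock 1 or mock 3 (0.106 and 0.124). Ifi47 was no longer called without mock 1, mock 3 or cuprizone 3 (0.183, 0.0844 and 0.0732). The Gbp genes are close copies of each other, and how reads shared between them were counted is not given in the sources used here.

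Other interferon-induced genes lay outside that list. Ifitm3, a membrane protein that blocks virus entry, had 14.2 and 18 CPM in mock and 35.2, 39.9 and 32.6 CPM in cuprizone (log2 fold change 1.16 ± 0.15, edgeR adjusted p = 0.00307). Oasl2, of the family of 2'-5' oligoadenylate synthetases, had 10.6 and 15.8 CPM in mock and 35.6, 30.3 and 30.9 CPM in cuprizone (log2 fold change 1.29 ± 0.17, edgeR adjusted p = 0.00402). Both kept their calls in every left-out fit. Ifit3, which binds foreign RNA with its partners, had 40.7 and 44.1 CPM in mock and 83.1, 95.3 and 68.3 CPM in cuprizone (log2 fold change 0.96 ± 0.14, edgeR adjusted p = 0.00758); its close copy Ifit3b was called too (log2 fold change 0.97 ± 0.17, edgeR adjusted p = 0.0157), and the 2 may share reads. Bst2, the tether that holds budding virus at the membrane, had 5.61 and 5.23 CPM in mock and 11.3, 14.2 and 10.5 CPM in cuprizone (log2 fold change 1.14 ± 0.18, edgeR adjusted p = 0.00971). Ifit3 and Bst2 were lowest in cuprizone 3 among the cuprizone libraries. Irf9, one of the factors that drive these genes, had 13.9 and 14.7 CPM in mock and 27.3, 24.6 and 25.7 CPM in cuprizone (log2 fold change 0.85 ± 0.13, edgeR adjusted p = 0.00829). Ifit3 was no longer called without mock 1 or mock 3 (0.0917 and 0.0622). Ifit3b was no longer called without mock 1 or mock 3 (0.144 and 0.081). Bst2 was no longer called without mock 1 or mock 3 (0.0791 and 0.107). Irf9 was no longer called without mock 1 or mock 3 (0.0791 and 0.0589).

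Signalling through gp130, the receptor chain shared by the interleukin 6 family, runs from receptors such as OSMR over JAK kinases to STAT3, which induces its own inhibitor Socs3. Of 26 genes of this list tested, 4 rose and none fell, and the median log2 fold change was 0.27. Osmr, given above, was the receptor among them. Socs3, the feedback inhibitor, had 1.63 and 1.82 CPM in mock and 6.28, 5.42 and 5.18 CPM in cuprizone and rose 3.27-fold (log2 fold change 1.71 ± 0.22, edgeR adjusted p = 0.00275), and was called in every left-out fit. Stat3 itself had 96.1 and 93.6 CPM in mock and 159.9, 139 and 135 CPM in cuprizone (log2 fold change 0.61 ± 0.11, edgeR adjusted p = 0.0213), a smaller rise at a level far higher than that of Socs3. Stat3 was no longer called without mock 1, mock 3 or cuprizone 1 (0.0992, 0.134 and 0.107). The shared chain Il6st had 62.6 and 52.8 CPM in mock and 81.1, 67 and 68.8 CPM in cuprizone (edgeR adjusted p = 0.361) and the kinase Jak1 197 ± 32.7 CPM in mock and 208 ± 16.7 CPM in cuprizone (edgeR adjusted p = 0.871), and neither passed. The promoter of Socs3 is shown for its GAS letters, in capitals, within the 200 bases before its start.
Socs3 (chr11:117969367-117969566, minus strand): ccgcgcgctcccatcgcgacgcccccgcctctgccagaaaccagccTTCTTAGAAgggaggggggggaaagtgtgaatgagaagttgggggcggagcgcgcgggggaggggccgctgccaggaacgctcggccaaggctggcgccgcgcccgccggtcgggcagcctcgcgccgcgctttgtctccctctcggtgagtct
The match began 154 bases before the gene start.

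Genes of the cell cortex and its actin network rose in part. In the list of 38 actin and cortex genes, 4 rose and none fell, with a median log2 fold change of 0.12. Capg, which caps actin filaments, had 1.49 and 1.41 CPM in mock and 9.36, 9.12 and 6.87 CPM in cuprizone and rose 5.81-fold (log2 fold change 2.54 ± 0.23, edgeR adjusted p = 0.00021). Msn, the moesin that ties actin to the membrane, had 19.7 and 22.1 CPM in mock and 50.6, 43.6 and 42.4 CPM in cuprizone (log2 fold change 1.12 ± 0.13, edgeR adjusted p = 0.00179). Arpc1b, a subunit of the Arp2/3 complex that branches actin, had 32.2 and 39 CPM in mock and 90.6, 92 and 69.2 CPM in cuprizone (log2 fold change 1.24 ± 0.15, edgeR adjusted p = 0.00209). These 3 were called in every left-out fit, with cuprizone 3 the lowest cuprizone library in each. Tagln2, a transgelin that bundles actin, had 6.13 and 6.13 CPM in mock and 12.6, 14.1 and 11.1 CPM in cuprizone (log2 fold change 1.04 ± 0.17, edgeR adjusted p = 0.0103). Tagln2 was no longer called without mock 1 or mock 3 (0.0893 and 0.0943). Hspb6, a small heat shock protein that binds actin-associated partners, was the 1 called gene of 35 heat shock genes tested, whose median was -0.08. It had 10.6 and 12.4 CPM in mock and 29.1, 31.1 and 27.3 CPM in cuprizone (log2 fold change 1.34 ± 0.14, edgeR adjusted p = 0.000647). The abundant actin-binding genes Tmsb4x, a thymosin, and Cfl1, cofilin, were not called, at 806 ± 161 CPM in mock and 721 ± 105 CPM in cuprizone and 1276 ± 147 CPM in mock and 1177 ± 74.5 CPM in cuprizone (edgeR adjusted p = 0.762 and 0.776).

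Annexins are proteins that bind membrane lipids with calcium, several of them with S100 partners. Of 15 annexin and S100 genes tested, 4 rose and none fell, and the median log2 fold change was 0.17. Anxa2 had 7.31 and 7.13 CPM in mock and 27.9, 26.9 and 21.3 CPM in cuprizone and rose 3.51-fold (log2 fold change 1.81 ± 0.16, edgeR adjusted p = 0.00021), called in every left-out fit. Anxa3 had 1.07 and 0.965 CPM in mock and 4.43, 4.33 and 3.3 CPM in cuprizone (log2 fold change 1.97 ± 0.26, edgeR adjusted p = 0.00313), Anxa4 had 9.25 and 10.1 CPM in mock and 19.6, 16.2 and 16 CPM in cuprizone (log2 fold change 0.84 ± 0.15, edgeR adjusted p = 0.0204) and S100a11 had 0.693 and 1 CPM in mock and 2.5, 2.53 and 2.03 CPM in cuprizone (log2 fold change 1.47 ± 0.29, edgeR adjusted p = 0.0266). Anxa3 was no longer called without mock 3 (0.054). Anxa4 was no longer called without mock 1, mock 3 or cuprizone 1 (0.14, 0.113 and 0.0967). S100a11 was no longer called without mock 1, mock 3 or cuprizone 1 (0.186, 0.1 and 0.0821). Anxa5, the most abundant annexin gene here, had 167 and 186 CPM in mock and 261, 268 and 220.5 CPM in cuprizone and missed the threshold (edgeR adjusted p = 0.0719), though DESeq2 called it.

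The AP-1 factors, dimers of FOS, JUN and ATF proteins that respond to injury and growth signals, bind sites that fit the letters TGANTCA. These letters stood in 4.81% of all promoter windows, in 18.7% of those of risen genes, 25 in number, and in 6.38% of those of fallen genes. The Gbp2 and Ifit3 windows printed above hold them too, in lower case. They are in capitals in the windows of Anxa2 and S100a11, shown as examples from the annexin and S100 list.
Anxa2 (chr9:69453483-69453682, plus strand): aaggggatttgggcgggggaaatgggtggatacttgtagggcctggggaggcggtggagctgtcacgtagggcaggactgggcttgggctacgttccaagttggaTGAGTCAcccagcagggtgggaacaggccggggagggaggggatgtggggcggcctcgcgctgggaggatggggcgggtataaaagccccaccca
S100a11 (chr3:93520296-93520495, plus strand): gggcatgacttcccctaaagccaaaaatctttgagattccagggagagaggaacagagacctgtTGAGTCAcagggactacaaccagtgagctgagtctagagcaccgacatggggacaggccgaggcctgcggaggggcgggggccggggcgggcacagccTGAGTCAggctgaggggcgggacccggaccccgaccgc
Among the AP-1 genes, Fos had 18.1 and 21.9 CPM in mock and 34.8, 39.9 and 37 CPM in cuprizone (log2 fold change 0.90 ± 0.14, edgeR adjusted p = 0.00753) and Atf3 had 0.485 and 0.223 CPM in mock and 1.89, 1.67 and 2.42 CPM in cuprizone (log2 fold change 2.47 ± 0.38, edgeR adjusted p = 0.00829). Fos was no longer called without mock 1 (0.078). Atf3 was no longer called without mock 3 (0.0999). Of 5 other motifs searched, the cAMP response element TGACGTCA stood in 3.16% of all windows, in 0 of 134 windows of risen genes and in 4.26% of those of fallen genes. The E-box CACGTG stood in 9.77% of all, 4.48% of risen and 14.9% of fallen, the last being 7 of 47 windows. TGATGNAA stood in 2.25%, 4.48% and 2.13% in that order. The NF-kappaB site GGGA, any base, TTTCC stood in 0.341% of all and 1.49% of risen windows, and TCACNCCAC in 1.06% and 1.49%, both in 0 of 47 fallen windows. The median GC content was 60.7% over all windows, 58% over those of risen and 54.7% over those of fallen genes.

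Genes in a list of protease inhibitors moved in both directions. Of 22 tested, 6 rose and 2 fell, with a median log2 fold change of -0.05, and A2m, Serping1 and Serpina3n, given above, were among those that rose. Serpinf2, the plasmin inhibitor alpha-2-antiplasmin, had 0.554 and 0.445 CPM in mock and 2.6, 2.48 and 2.99 CPM in cuprizone (log2 fold change 2.42 ± 0.29, edgeR adjusted p = 0.00198) and was called in every left-out fit. Serpinf1 and Timp1, an inhibitor of metalloproteinases, were the others that rose, Timp1 from 0 and 0.0371 CPM in mock to 0.777, 1.53 and 0.768 CPM in cuprizone. Serpinb1a, an inhibitor of neutrophil proteases, had 32.2 and 31.3 CPM in mock and 15.2, 18.8 and 14.3 CPM in cuprizone (log2 fold change -0.98 ± 0.14, edgeR adjusted p = 0.00596). Timp4, another metalloproteinase inhibitor, had 108 and 113 CPM in mock and 76.6, 79.1 and 67.7 CPM in cuprizone (log2 fold change -0.57 ± 0.11, edgeR adjusted p = 0.0251). The 2 called TIMP genes lay on opposite sides, with the abundant Timp4 lower and the scarce Timp1 higher in cuprizone. Another TIMP gene of the list was lower at an unadjusted p under 0.05 and was not called. Timp1 was no longer called without mock 1 or mock 3 (0.0958 and 0.0645). Serpinb1a was no longer called without mock 1 or mock 3 (0.0539 and 0.054). Timp4 was no longer called without mock 1, mock 3, cuprizone 1 or cuprizone 3 (0.0953, 0.167, 0.0879 and 0.14). Serpinf1 was no longer called without mock 1, mock 3, cuprizone 1, cuprizone 2 or cuprizone 3 (0.0958, 0.327, 0.12, 0.0657 and 0.113) and under the 1 CPM filter (0.0652), without robust dispersion (0.0503), in limma-voom (0.0564), with the mean of mock 1 and 2 (0.0523).

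Of 39 proteoglycan, tenascin, thrombospondin and hyaluronan genes tested, 6 rose and none fell, and the median log2 fold change was 0.01. Cd44, the hyaluronan receptor, had 3.22 and 2.56 CPM in mock and 7.3, 11.1 and 8.29 CPM in cuprizone and rose 3.06-fold (log2 fold change 1.61 ± 0.23, edgeR adjusted p = 0.00534). Thbs4, a thrombospondin of astrocytes, had 15.1 and 14.1 CPM in mock and 41.1, 45.9 and 26.3 CPM in cuprizone (log2 fold change 1.37 ± 0.21, edgeR adjusted p = 0.00946). Bgn, the small proteoglycan biglycan, had 3.32 and 2.78 CPM in mock and 6.49, 6.23 and 6.02 CPM in cuprizone (log2 fold change 1.03 ± 0.19, edgeR adjusted p = 0.0216). Cemip2, which cleaves hyaluronan, had 14 and 9.13 CPM in mock and 33.4, 29.7 and 24.8 CPM in cuprizone (log2 fold change 1.34 ± 0.20, edgeR adjusted p = 0.00692). Groups did not overlap in any of the 4, as in 28% of all genes tested. The large proteoglycan genes Bcan and Ncan, with 469 ± 64.8 CPM in mock and 380.3 ± 30.03 CPM in cuprizone and 581 ± 69.8 CPM in mock and 497 ± 52.4 CPM in cuprizone, were not called (edgeR adjusted p = 0.368 and 0.558). Cd44 was no longer called without mock 3 (0.0779). Thbs4 was no longer called without mock 1 or mock 3 (0.0961 and 0.12). Bgn was no longer called without mock 1, mock 3, cuprizone 1 or cuprizone 3 (0.095, 0.185, 0.0821 and 0.0514). Cemip2 was no longer called without mock 3 (0.0622). Of 26 iron genes, 3 rose, with a median of 0.22: Steap4, at 0 and 0.0371 CPM in mock and 1.76, 0.722 and 0.537 CPM in cuprizone, Cp, the ferroxidase ceruloplasmin that carries copper, and Cybrd1. Cp had 2.49 and 1.86 CPM in mock and 5.95, 5.28 and 4.07 CPM in cuprizone (log2 fold change 1.23 ± 0.24, edgeR adjusted p = 0.0294). Steap4 was no longer called without mock 1 or mock 3 (0.166 and 0.138) and with all 6 libraries (0.108), with the mean of mock 1 and 2 (0.0608). Cp was no longer called without mock 1, mock 3 or cuprizone 1 (0.098, 0.254 and 0.106). Cybrd1 was no longer called without mock 1, mock 3, cuprizone 1, cuprizone 2 or cuprizone 3 (0.115, 0.327, 0.0618, 0.0721 and 0.0617) and under the 1 CPM filter (0.0638), without robust dispersion (0.0509), in limma-voom (0.0673).

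Prom1, a membrane protein of stem cells and glia, had 6.82 and 5.94 CPM in mock and 18.4, 17.5 and 13.8 CPM in cuprizone (log2 fold change 1.37 ± 0.18, edgeR adjusted p = 0.00277). Prom1 was no longer called without mock 3 (0.0503). Aplp2, a relative of the amyloid precursor protein, had cuprizone values close together, with 493 and 533 CPM in mock and 849, 864 and 861 CPM in cuprizone (log2 fold change 0.74 ± 0.11, edgeR adjusted p = 0.00534). Myo10, a motor protein of filopodia, had 40.6 and 36.7 CPM in mock and 77.5, 72.2 and 67.5 CPM in cuprizone (log2 fold change 0.91 ± 0.12, edgeR adjusted p = 0.00321). The latter 2 were called in every left-out fit, although each rose less than 2-fold.

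The falls that held in every left-out fit included Ptgds, Rasgrp3 and Pygm. Ptgds, the enzyme that makes prostaglandin D2, had 291 and 302 CPM in mock and 110.3, 140.3 and 104 CPM in cuprizone and was 2.51-fold lower in cuprizone (log2 fold change -1.33 ± 0.13, edgeR adjusted p = 0.000364). Rasgrp3, an activator of Ras proteins, had 16.8 and 19.7 CPM in mock and 8.41, 7.49 and 7.41 CPM in cuprizone and was 2.35-fold lower (log2 fold change -1.23 ± 0.15, edgeR adjusted p = 0.00198). Pygm, the glycogen phosphorylase that frees glucose from the glycogen of astrocytes, had 48.9 and 53.3 CPM in mock and 27.7, 28 and 29.4 CPM in cuprizone and was 1.8-fold lower (log2 fold change -0.85 ± 0.11, edgeR adjusted p = 0.00377). All 3 were called in every left-out fit, and their cuprizone values lay close together. Slco1c1, which carries thyroid hormone and organic anions, had 41.3 and 34.2 CPM in mock and 21.6, 20.3 and 20.8 CPM in cuprizone (log2 fold change -0.85 ± 0.13, edgeR adjusted p = 0.00722). Btbd17, a secreted protein of glia, had 141 and 128 CPM in mock and 80.8, 85.4 and 67.1 CPM in cuprizone (log2 fold change -0.79 ± 0.12, edgeR adjusted p = 0.00873). Leaving out mock 1 ended the call of Slco1c1 (edgeR adjusted p = 0.0799) and that of Btbd17 (0.0804). Ptgds is also made by meningeal cells. Of 10 fibroblast and meningeal markers tested, Ptgds and Igfbp2 fell and none rose, and the median log2 fold change was -0.57. The sum was 441 and 412 CPM in mock and 191, 226 and 215 CPM in cuprizone. Ptgds is itself in this sum and made up most of it in mock and most of its fall, so the sum is no separate measure of these cells. Col1a1, a defining collagen gene of fibroblasts, was near 0, at 2.11 and 1.11 CPM in mock and 0.912, 0.677 and 0.691 CPM in cuprizone, and Col3a1 did not pass the filter on low counts. The part of these cells in the fall of Ptgds was not tested. Igfbp2, which binds insulin-like growth factors, had 59.98 and 55.4 CPM in mock and 36.2, 43.8 and 35 CPM in cuprizone (log2 fold change -0.59 ± 0.13, edgeR adjusted p = 0.045). Igfbp2 was no longer called without mock 1, mock 3, cuprizone 1 or cuprizone 3 (0.19, 0.147, 0.191 and 0.194) and under the 1 CPM filter (0.0647), without robust dispersion (0.0509), with the mean of mock 1 and 2 (0.0518).

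Receptors for the transmitter GABA were among the fallen genes. Of 39 transmitter, purine and monoamine receptors tested, 2 fell and none rose, with a median of 0.03. Gabra2 had 184 and 146 CPM in mock and 100.1, 93.1 and 103 CPM in cuprizone (log2 fold change -0.74 ± 0.12, edgeR adjusted p = 0.0105) and Gabrg1, another subunit of the GABA-A receptor channel, had 39.3 and 38.9 CPM in mock and 23.4, 26 and 26.4 CPM in cuprizone (log2 fold change -0.63 ± 0.12, edgeR adjusted p = 0.0224). In both, each cuprizone library lay below both mock libraries. The GABA transporter Slc6a11 had 75 ± 4.24 CPM in mock and 47.1 ± 9.75 CPM in cuprizone and missed the edgeR threshold (adjusted p = 0.0585), though DESeq2 called it. Slc7a10, the carrier of small neutral amino acids such as serine, was the 1 called gene of 32 amino acid transporters, at 66.4 and 62.3 CPM in mock and 40.4, 49.2 and 40.3 CPM in cuprizone (log2 fold change -0.57 ± 0.12, edgeR adjusted p = 0.0455). Gabra2 was no longer called without mock 1 (0.0926). Gabrg1 was no longer called without mock 1, mock 3, cuprizone 1 or cuprizone 3 (0.107, 0.125, 0.13 and 0.0683). Slc7a10 was no longer called without mock 1, mock 3, cuprizone 1 or cuprizone 3 (0.183, 0.154, 0.199 and 0.196) and under the 1 CPM filter (0.0652), without robust dispersion (0.0509).

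Notch is a receptor on the cell surface whose cleaved tail enters the nucleus with RBPJ and turns on Hes and Hey genes, and Fringe enzymes tune its response to ligands. Of 28 genes tested, 2 fell and none rose, and the median log2 fold change was 0.04. A log2 fold change above 0 was found in 16 of the 28. At an unadjusted p under 0.05, 3 genes were higher and 4 lower, so the list moved in both directions. Heyl, a target gene, had 7.58 and 5.83 CPM in mock and 3.07, 2.8 and 3.11 CPM in cuprizone (log2 fold change -1.16 ± 0.20, edgeR adjusted p = 0.0132). Lfng, the Fringe enzyme lunatic fringe, had 22.2 and 22.9 CPM in mock and 12.9, 15.2 and 11.6 CPM in cuprizone (log2 fold change -0.77 ± 0.15, edgeR adjusted p = 0.0233). The target gene Hes5, at 46.1 and 50.4 CPM in mock and 33.5, 38.1 and 29.97 CPM in cuprizone, missed the edgeR threshold (adjusted p = 0.093), though DESeq2 called it. Heyl was no longer called without mock 1 (0.135). Lfng was no longer called without mock 1, mock 3, cuprizone 1 or cuprizone 3 (0.107, 0.165, 0.0943 and 0.0983).

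Single genes of sterol and fatty acid synthesis fell, with the sterol genes picked after their values were seen and no list of them counted. Fdft1, the squalene synthase, had 164 and 184 CPM in mock and 105, 122 and 109 CPM in cuprizone (log2 fold change -0.64 ± 0.11, edgeR adjusted p = 0.0153). Msmo1, a sterol oxidase further along the pathway, had 169 and 159 CPM in mock and 104, 118 and 110.2 CPM in cuprizone (log2 fold change -0.57 ± 0.11, edgeR adjusted p = 0.0208). Scd1, the desaturase that makes monounsaturated fatty acids, had 141 and 155 CPM in mock and 106, 104 and 105 CPM in cuprizone (log2 fold change -0.49 ± 0.10, edgeR adjusted p = 0.0376). Scd1 was the 1 called gene of 47 fatty acid and lipid droplet genes, whose median was -0.05. Scd1 shares sequence with Scd3, which was also called (log2 fold change -1.09 ± 0.22, edgeR adjusted p = 0.0308). Fdft1 was no longer called without mock 3, cuprizone 1 or cuprizone 3 (0.129, 0.0806 and 0.0658). Msmo1 was no longer called without mock 1, mock 3, cuprizone 1 or cuprizone 3 (0.107, 0.0813, 0.119 and 0.089). Scd1 was no longer called without mock 1, mock 3, cuprizone 1, cuprizone 2 or cuprizone 3 (0.0804, 0.238, 0.158, 0.0545 and 0.157) and under the 1 CPM filter (0.051). Scd3 was no longer called without mock 1, mock 3, cuprizone 1 or cuprizone 3 (0.0612, 0.324, 0.106 and 0.094) and under the 1 CPM filter (0.0503), with all 6 libraries (0.06). Mfge8, a secreted protein that bridges apoptotic cells to phagocytes, had 459 and 407 CPM in mock and 234, 301 and 269 CPM in cuprizone (log2 fold change -0.69 ± 0.12, edgeR adjusted p = 0.0185). Il33, an alarm cytokine stored in nuclei, had 341 and 489 CPM in mock and 218, 269 and 242 CPM in cuprizone (log2 fold change -0.77 ± 0.15, edgeR adjusted p = 0.0278), with unlike mock values. Il33 was no longer called without mock 3, cuprizone 1 or cuprizone 3 (0.237, 0.0946 and 0.0719) and with all 6 libraries (0.0752). Mfge8 was no longer called without mock 1, mock 3, cuprizone 1 or cuprizone 3 (0.115, 0.0622, 0.0788 and 0.0521). Htra1, a secreted protease, had 363 and 357 CPM in mock and 230.1, 262 and 230.2 CPM in cuprizone (log2 fold change -0.58 ± 0.11, edgeR adjusted p = 0.0204). Htra1 was no longer called without mock 1, mock 3, cuprizone 1 or cuprizone 3 (0.0958, 0.107, 0.11 and 0.0964). Agt, the angiotensinogen gene, had 52 and 26.7 CPM in mock and 16, 20.1 and 13.8 CPM in cuprizone (log2 fold change -1.25 ± 0.25, edgeR adjusted p = 0.045), again with unlike mock values. Agt was no longer called without mock 1, cuprizone 1, cuprizone 2 or cuprizone 3 (0.197, 0.177, 0.118 and 0.129) and under the 1 CPM filter (0.0547), with all 6 libraries (0.0866), in the fit of 9 libraries (0.0951).

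**Figure D3:**
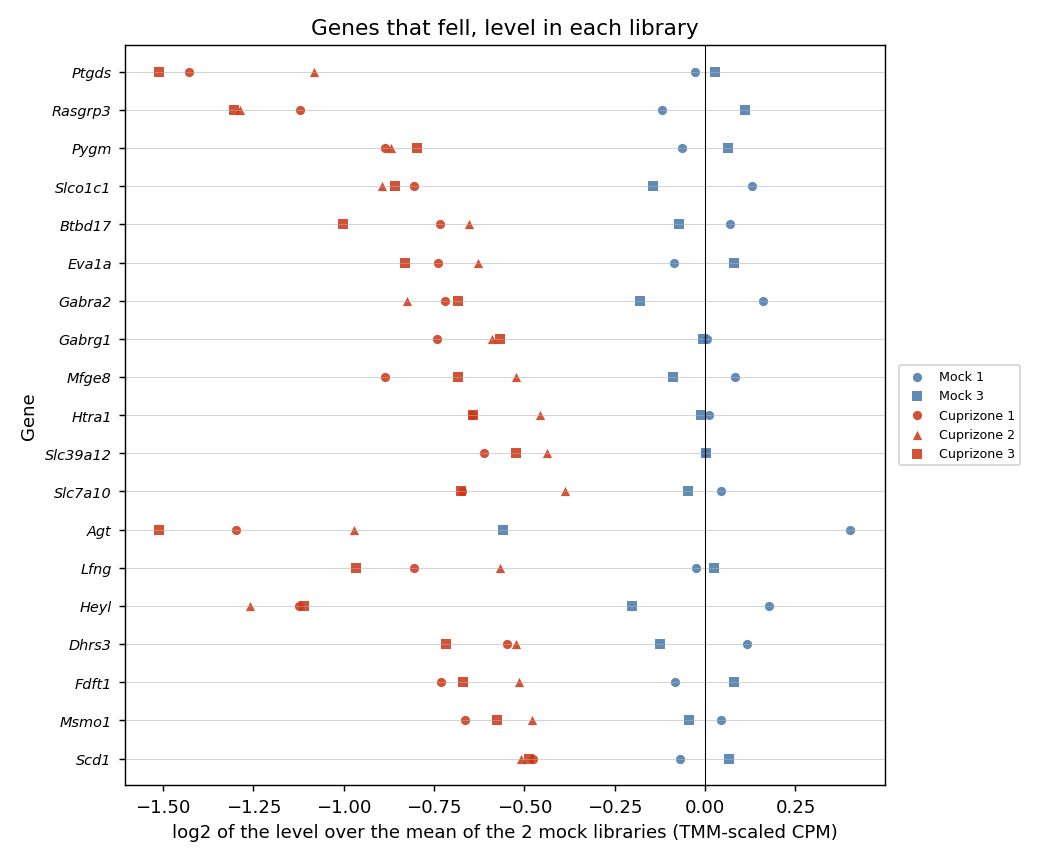
Log2 of the level of 19 fallen genes in each library over the mean of both mock libraries, with mock in blue and cuprizone in red. All red points lie left of 0, and the mock points of Agt, at 52 and 26.7 CPM, lie far apart.

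The oligodendrocyte lineage showed rises and falls at once. Precursors express Pdgfra and Cspg4, newly formed oligodendrocytes pass through a stage with Gpr17 and Bcas1, and mature cells make the myelin proteins. Of 15 precursor markers tested, no tool called any, with 4 at an unadjusted p under 0.05 and a median of 0.13. Pdgfra had 47.3 and 41.2 CPM in mock and 60.9, 53.4 and 55.9 CPM in cuprizone (edgeR adjusted p = 0.252). Of 17 markers of newly formed cells, 4 rose and none fell, the median was 0.47, and 16 had a log2 fold change above 0. The noncoding RNA 9630013A20Rik had 14.3 and 15 CPM in mock and 49, 44.5 and 36.5 CPM in cuprizone and rose 2.96-fold (log2 fold change 1.57 ± 0.15, edgeR adjusted p = 0.000324), called in every left-out fit. Gpr17, a receptor that holds cells at the premyelinating stage, had 36.2 and 32.2 CPM in mock and 75.3, 63.2 and 58.5 CPM in cuprizone and rose 1.92-fold (log2 fold change 0.94 ± 0.14, edgeR adjusted p = 0.00596). Gpr17 was no longer called without mock 3 (0.0759). Casr, the calcium-sensing receptor, had 0.242 and 0.148 CPM in mock and 2.87, 1.13 and 1.57 CPM in cuprizone. Casr was no longer called without mock 1 or mock 3 (0.0989 and 0.147). Cemip2, given above, was the fourth. Bcas1, at 61.4 and 75 CPM in mock and 89.6, 117 and 77.4 CPM in cuprizone, was not called (edgeR adjusted p = 0.293). DESeq2 called 8 of the 17 and limma-voom 4.

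Of 22 markers of mature oligodendrocytes, 4 rose and 3 fell, with a median of 0.18. Mog, a myelin surface protein used as an antigen in models of autoimmune demyelination, had 287 and 247 CPM in mock and 448, 539 and 391 CPM in cuprizone (log2 fold change 0.78 ± 0.14, edgeR adjusted p = 0.0195). Mag, the adhesion protein between myelin and axon, had 584 and 455 CPM in mock and 933, 960.2 and 754 CPM in cuprizone (log2 fold change 0.76 ± 0.14, edgeR adjusted p = 0.0229). Ugt8a, the enzyme of galactosylceramide synthesis, had 83.1 and 67.5 CPM in mock and 157, 143 and 106 CPM in cuprizone (log2 fold change 0.85 ± 0.16, edgeR adjusted p = 0.0275). Apod, the lipid carrier apolipoprotein D, had 175 and 168 CPM in mock and 247, 399 and 292 CPM in cuprizone (log2 fold change 0.87 ± 0.17, edgeR adjusted p = 0.0342). These 4 genes were higher in each cuprizone library than in either mock library. Mbp, the gene of myelin basic protein, was higher on average without passing, at 5603 and 6857 CPM in mock and 9026, 9163 and 7902 CPM in cuprizone (edgeR adjusted p = 0.13, though DESeq2 called it). Nfasc, which encodes the neurofascins of nodes and paranodes of Ranvier, had 259 and 189 CPM in mock and 524, 479 and 378 CPM in cuprizone (log2 fold change 1.04 ± 0.17, edgeR adjusted p = 0.0105). Gsn, the actin-severing gelsolin that is abundant in oligodendrocytes, had 398 and 311 CPM in mock and 799, 866 and 644 CPM in cuprizone (log2 fold change 1.12 ± 0.15, edgeR adjusted p = 0.00443). Sirt2, a deacetylase of myelin, had 341 and 370.3 CPM in mock and 655, 618 and 522 CPM in cuprizone (log2 fold change 0.75 ± 0.12, edgeR adjusted p = 0.0114). Mog was no longer called without mock 1 or mock 3 (0.0799 and 0.173). Mag was no longer called without mock 3 or cuprizone 1 (0.187 and 0.0742). Ugt8a was no longer called without mock 1, mock 3, cuprizone 1 or cuprizone 2 (0.0953, 0.259, 0.074 and 0.0545). Apod was no longer called without mock 1 or mock 3 (0.167 and 0.234) and under the 1 CPM filter (0.0529). Nfasc was no longer called without mock 3 (0.115). Gsn was no longer called without mock 3 (0.059). Sirt2 was no longer called without mock 1 or mock 3 (0.098 and 0.0645).

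Other genes of mature oligodendrocytes stood on the opposite side. Car2, the carbonic anhydrase of myelinating cells, had 1136 and 1464 CPM in mock and 699, 841 and 705 CPM in cuprizone and was 1.74-fold lower (log2 fold change -0.80 ± 0.13, edgeR adjusted p = 0.013). Aspa, the enzyme that splits N-acetylaspartate to supply acetate for lipids, had 75.1 and 91.4 CPM in mock and 43, 55.2 and 45.7 CPM in cuprizone (log2 fold change -0.80 ± 0.14, edgeR adjusted p = 0.0137). Anln, anillin, which organizes septins in mature myelin, had 56.3 and 94.8 CPM in mock and 31.9, 39 and 35.4 CPM in cuprizone (log2 fold change -1.09 ± 0.19, edgeR adjusted p = 0.0182). Qdpr, a pteridine reductase, had 420.1 and 575 CPM in mock and 271, 307 and 287 CPM in cuprizone (log2 fold change -0.79 ± 0.13, edgeR adjusted p = 0.0137). In each of the 4, mock 3 was the higher mock library, by the largest ratio in Anln. All 4 calls ended without mock 3 (edgeR adjusted p = 0.129, 0.147, 0.115 and 0.122 in the order given) and without cuprizone 1 (0.0543, 0.0543, 0.0546 and 0.0534). The part of a difference between the mock mice in these falls was not tested.

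**Figure D4:**
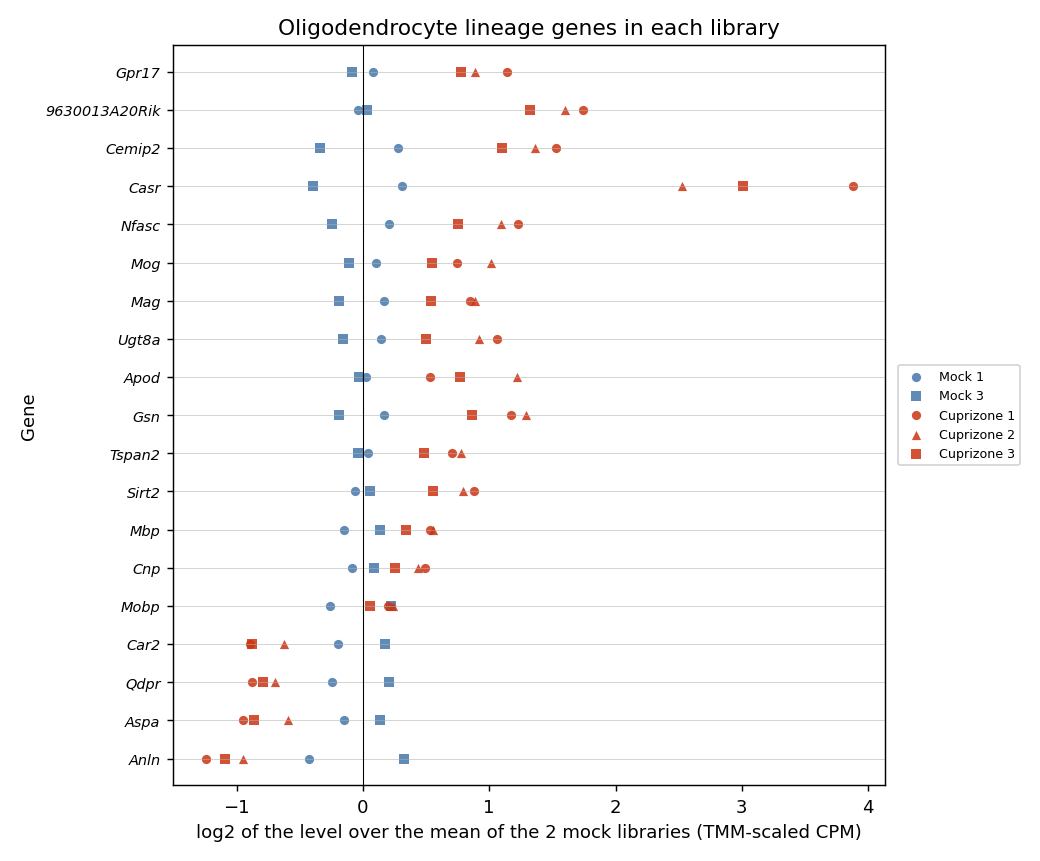
Log2 of the level of 19 oligodendrocyte lineage genes in each library over the mean of both mock libraries, with mock in blue and cuprizone in red. Red points lie right of 0 from Gpr17 down to Sirt2 and left of 0 for Car2, Qdpr, Aspa and Anln, and the mock points of Anln, at 56.3 and 94.8 CPM, lie far apart.

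Of 57 axon guidance and ephrin genes tested, 5 rose and none fell, with a median of 0.21, and 45 had a log2 fold change above 0. Sema4d, a membrane semaphorin made by oligodendrocytes, had 85.2 and 70.7 CPM in mock and 165, 142 and 123 CPM in cuprizone (log2 fold change 0.88 ± 0.14, edgeR adjusted p = 0.0104). Sema6a, which oligodendrocytes need to mature, had 40.6 and 30.4 CPM in mock and 85.3, 72.2 and 60.8 CPM in cuprizone (log2 fold change 1.04 ± 0.17, edgeR adjusted p = 0.0108). Sema3d, a secreted semaphorin, had 6.65 and 6.53 CPM in mock and 11.9, 14.3 and 12 CPM in cuprizone (log2 fold change 0.95 ± 0.16, edgeR adjusted p = 0.0132). Plxnb3, a semaphorin receptor of the plexin family, had 18.8 and 17.9 CPM in mock and 33.7, 28.1 and 29.6 CPM in cuprizone (log2 fold change 0.73 ± 0.13, edgeR adjusted p = 0.0195). Mag was the fifth. In all of these the cuprizone libraries lay above both mock libraries. Sema4d was no longer called without mock 3 (0.122). Sema6a was no longer called without mock 3 (0.122). Sema3d was no longer called without mock 1 or mock 3 (0.0958 and 0.113). Plxnb3 was no longer called without mock 1, mock 3, cuprizone 1 or cuprizone 3 (0.0978, 0.141, 0.0967 and 0.0514).

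Genes of macrophages and activated microglia rose from very low levels. Of 14 tested, 7 rose and none fell, and the median log2 fold change was 1.16. Cst7, Ms4a7, Mrc1, Pf4, F13a1 and Ccr2 did not pass the filter on low counts. A member near 0 in mock, such as Clec7a or Itgax, could pass it only through the cuprizone libraries. The count and the median of this list therefore lean towards rises. Lyz2, lysozyme, had 0.693 and 0.557 CPM in mock and 3.58, 6.28 and 3.8 CPM in cuprizone (log2 fold change 2.84 ± 0.34, edgeR adjusted p = 0.00185) and was called in every left-out fit. Cd74, the invariant chain of antigen presentation, had 1.35 and 0.483 CPM in mock and 3.21, 5.87 and 4.95 CPM in cuprizone (log2 fold change 2.32 ± 0.39, edgeR adjusted p = 0.0148). Lgals3, galectin 3, had 2.74 and 3.12 CPM in mock and 9.02, 8.85 and 5.83 CPM in cuprizone (log2 fold change 1.43 ± 0.23, edgeR adjusted p = 0.0106). Clec7a, a receptor for fungal glucans, was at 0.104 and 0 CPM in mock and 0.743, 1.35 and 1.07 CPM in cuprizone. Cuprizone 2 was the highest library for Lyz2, Cd74 and Clec7a. Cd74 was no longer called without mock 3 (0.115). Lgals3 was no longer called without mock 1 or mock 3 (0.109 and 0.0907). Clec7a was no longer called without mock 3 (0.113). Spp1, Itgax and Cybb were the other 3, all under 4 CPM in every library. Spp1 was no longer called without mock 1 or mock 3 (0.152 and 0.173) and in limma-voom (0.055). Itgax was no longer called without mock 1 or mock 3 (0.209 and 0.161) and in DESeq2 (0.0715), with the mean of mock 1 and 2 (0.11). Cybb was no longer called without mock 1, mock 3, cuprizone 2 or cuprizone 3 (0.144, 0.306, 0.0576 and 0.0767) and in DESeq2 (0.0968), with all 6 libraries (0.185), with the mean of mock 1 and 2 (0.175). Summed over the 14 genes the level was 8273 and 6548 CPM in mock and 7239, 8936 and 6934 CPM in cuprizone, most of it Apoe, which astrocytes also make.

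Of 19 microglial markers, none was called by edgeR or limma-voom, while DESeq2 called C1qc and Ctss. In all, 8 were higher at an unadjusted p under 0.05, the median was 0.64, and 15 had a log2 fold change above 0. Csf1r, the receptor that keeps microglia alive, had 3.36 and 4.01 CPM in mock and 5.47, 7.09 and 5.41 CPM in cuprizone (edgeR adjusted p = 0.169), and the sum over the 19 was 58.5 and 68.2 CPM in mock and 80.2, 108 and 79.2 CPM in cuprizone, highest in cuprizone 2. These markers moved in the same direction as the interferon, complement and actin genes above, and their part in those rises was not tested. Of 14 lymphocyte markers 3 passed the filter, with a median of -0.77, and none was called by any of the 3 tools, with 2 at an unadjusted p under 0.05.

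No member of the lists for excitatory neurons (13 tested), inhibitory neurons (13), endothelial cells (10), pericytes and smooth muscle (9) or ependymal cells (14) was called by edgeR or limma-voom. DESeq2 called 1, the ependymal gene Foxj1. At an unadjusted p under 0.05 there were 1, 0, 0, 0 and 2 genes in that order, and the median log2 fold changes lay between -0.23 and 0.08. Of 10 choroid plexus markers 1 rose: Ttr, the thyroid hormone carrier transthyretin that marks this tissue, at 1.21 and 1.56 CPM in mock and 9.46, 20.7 and 32.4 CPM in cuprizone (log2 fold change 3.91 ± 0.51, edgeR adjusted p = 0.00694). All 10 had log2 fold changes above 0, with a median of 0.64 and a sum of 485 and 406 CPM in mock and 565, 630.0 and 541 CPM in cuprizone. The cuprizone libraries lay far apart in Ttr. Ttr was no longer called without mock 1, mock 3 or cuprizone 2 (0.0752, 0.059 and 0.143) and without a filter (0.369), in the fit of 9 libraries (0.214). The part of choroid plexus tissue in the Ttr level was not tested.

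Several pathways of glia showed no called gene. Wnt signalling (42 tested), Hedgehog signalling (14), BMP, TGF beta and Id genes (42), YAP and TEAD targets (20), clock genes (24), and water, ion and gap junction channels (41) had none by edgeR or limma-voom. DESeq2 called Bmp4 and Lats2 among them. At an unadjusted p under 0.05 there were 3, 3, 10, 3, 3 and 5 genes in that order, and the medians lay between -0.00 and 0.16. Gja1, the main gap junction gene of astrocytes, had 611 and 571 CPM in mock and 516, 537 and 491 CPM in cuprizone (edgeR adjusted p = 0.54). Of 53 growth factors and receptors, with a median of 0.09, 1 fell, Igfbp2, and of 25 p53 targets, also with a median of 0.09, 1 fell, Pmaip1, which promotes cell death, at 4.12 and 4.9 CPM in mock and 2.09, 1.4 and 2.26 CPM in cuprizone (log2 fold change -1.22 ± 0.24, edgeR adjusted p = 0.0291). Pmaip1 was no longer called without mock 1, mock 3 or cuprizone 1 (0.1, 0.243 and 0.0659) and with all 6 libraries (0.117), with the mean of mock 1 and 2 (0.0764). Among 61 transcription factors of glia and injury 6 rose and none fell, with a median of 0.09. They included Fos, Atf3, Stat3 and Irf9, given above, and Irf8, a factor of myeloid cells, at 1.7 and 1.74 CPM in mock and 3.28, 3.7 and 3.49 CPM in cuprizone (log2 fold change 1.02 ± 0.22, edgeR adjusted p = 0.0477). Irf8 was no longer called without mock 1, mock 3, cuprizone 1, cuprizone 2 or cuprizone 3 (0.201, 0.23, 0.111, 0.0681 and 0.127) and under the 1 CPM filter (0.0526), in DESeq2 (0.0537), in limma-voom (0.0649), with the mean of mock 1 and 2 (0.0534).

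The remaining lists had 1 to 3 called genes each. Of 19 integrins 2 rose, with a median of 0.24: Itgax, given above, and Itgb7, a chain of leukocyte integrins, at 0.831 and 0.594 CPM in mock and 1.99, 2.17 and 2.34 CPM in cuprizone (log2 fold change 1.59 ± 0.29, edgeR adjusted p = 0.0195). Of 28 thyroid hormone and retinoid genes, Ttr rose and Slco1c1 and Dhrs3 fell, with a median of -0.10. Dhrs3, which turns retinal back to retinol, had 98.4 and 83.3 CPM in mock and 62.1, 63.2 and 55.2 CPM in cuprizone (log2 fold change -0.59 ± 0.12, edgeR adjusted p = 0.0307). Ttr is also the choroid plexus marker given above, and neither its call nor that of Slco1c1 held in every left-out fit. Of 29 prostaglandin and eicosanoid genes, Alox5 rose and Ptgds fell, with a median of -0.01. Of 28 glucocorticoid-responsive genes, Htra1 and Agt fell and none rose, with a median of -0.17. In this list 20 genes had a log2 fold change below 0 and 8 above it. At an unadjusted p under 0.05, 10 were lower and 3 higher. DESeq2 called 4 as fallen and limma-voom 2, and neither called any as risen. Of 24 long noncoding RNAs, Pantr1 fell, at 104 and 140.0 CPM in mock and 76.9, 75.8 and 69.6 CPM in cuprizone (log2 fold change -0.72 ± 0.13, edgeR adjusted p = 0.0204), with a median of 0.03, and of 13 markers of neural stem cells and neuroblasts Thbs4 rose, with a median of 0.16. Itgb7 was no longer called without mock 1, mock 3 or cuprizone 3 (0.0868, 0.173 and 0.0538). Dhrs3 was no longer called without mock 1, mock 3, cuprizone 1 or cuprizone 3 (0.179, 0.0626, 0.0922 and 0.147). Pantr1 was no longer called without mock 3, cuprizone 1 or cuprizone 3 (0.19, 0.0503 and 0.0766).

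**Figure D5:**
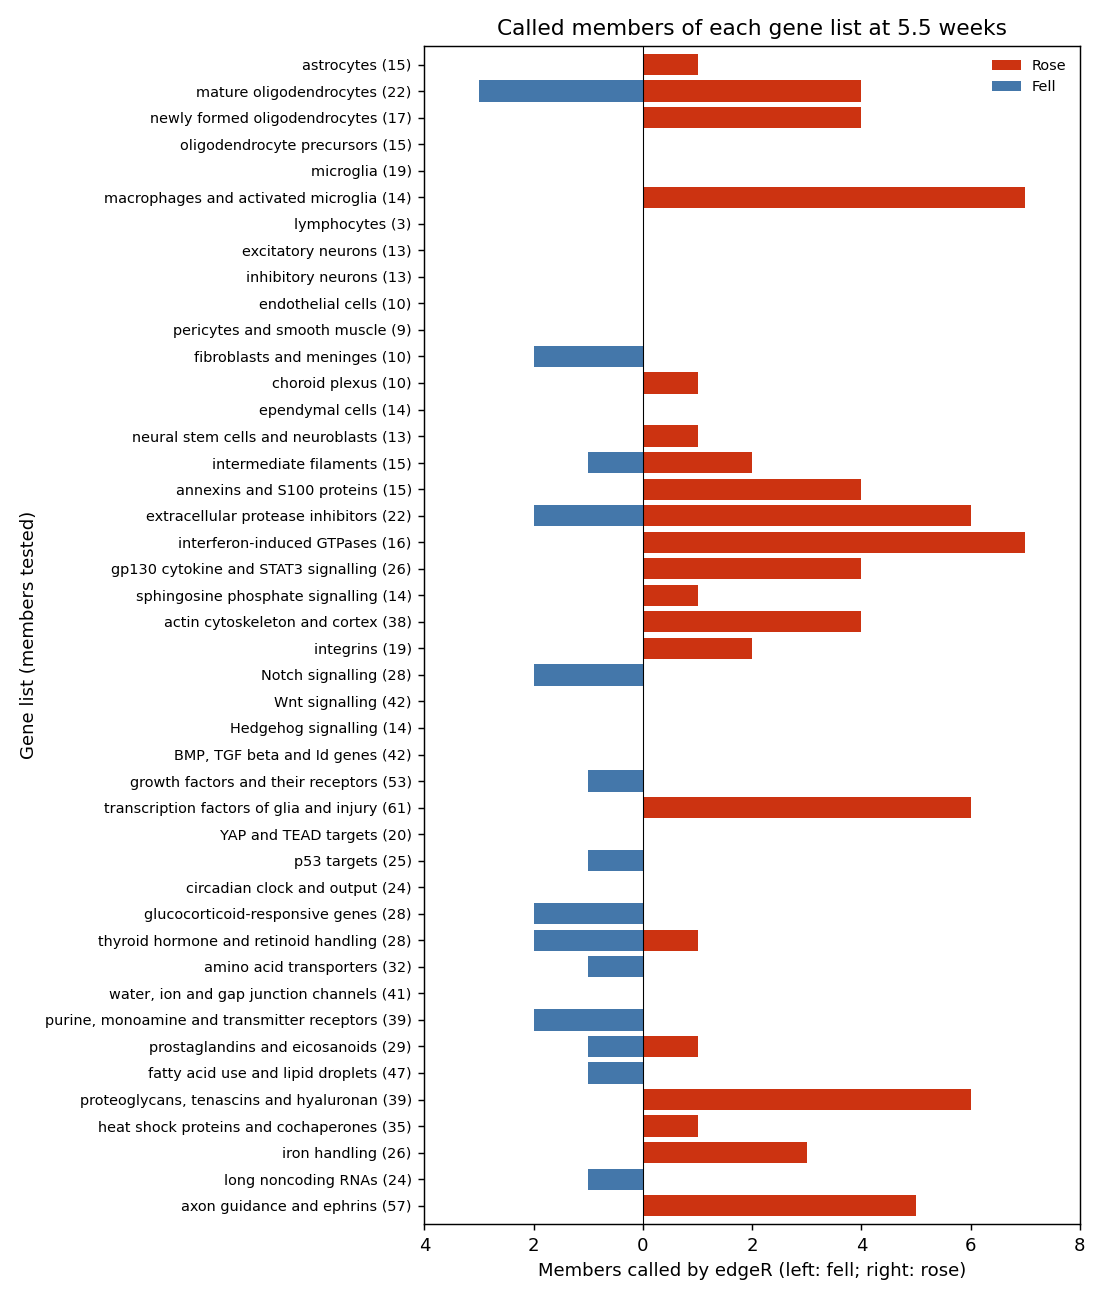
Number of members of each of the 44 gene lists that edgeR called at 5.5 weeks, with risen genes to the right in red and fallen genes to the left in blue, and the number tested in brackets. Interferon-induced GTPases and the macrophage list reach 7 risen genes each, and many lists have none on either side.

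The same genes were read in the other weeks, where 1 library a group was usable and no test was possible. At 5 weeks, 95 of the 173 risen genes (54.9%) were at least 2-fold higher in the cuprizone library, against 12.1% of the 16071 tested genes that the files of both batches list, and 36 of the 63 fallen genes (57.1%) were at least 2-fold lower, against 11.9%. At 7 weeks the shares were 120 of 173 (69.4%, against 17.1%) and 13 of 63 (20.6%, against 0.828%). Levels in these weeks are CPM by the library total without TMM, and ratios were taken with 0.5 CPM added to each. The 5-week libraries belong to batch 1, so that week and batch cannot be told apart, and the 7-week cuprizone library had counts in 34576 genes, more than the at most 23980 of the other libraries without repeats.

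Single genes followed different courses. Gfap had 872 CPM in mock and 10050 CPM in cuprizone at 5 weeks, and 1157 and 4081 CPM at 7 weeks. Vim had 17.8 and 355 CPM at 5 weeks, and 19.7 and 132 CPM at 7 weeks. For both filament genes the cuprizone level was highest at 5 weeks and the 5.5-week libraries were nearer to mock. C4b had 13.7 and 17.6 CPM at 5 weeks, and 14.6 and 173 CPM at 7 weeks, so that its 5.5-week level of 90.5 CPM lay between. Osmr had 6.14 and 9.59 CPM at 5 weeks, and 0.626 and 13.4 CPM at 7 weeks. Ptgds, low at 5.5 weeks, had 532 and 11 CPM at 5 weeks, and 331 and 409 CPM at 7 weeks. Mog had 354 and 67.6 CPM at 5 weeks, and 238 and 337 CPM at 7 weeks. The Mog level of cuprizone was thus under that of mock at 5 weeks and over it at 5.5 and 7 weeks. Mog was 1 of 11 risen genes that were at least 2-fold lower in the 5-week cuprizone library, among them Mag, Apod, Gsn, Aplp2 and Ttr. Anln had 68.6 and 7.28 CPM at 5 weeks, and 94.1 and 33.1 CPM at 7 weeks, lower in cuprizone in each week. Without a second library these ratios have no measure of spread.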

How the data were processed

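RNA bound to HA-tagged ribosomes was sequenced from the corpus callosum of male mice. The authors deposited raw counts per Ensembl gene, with no normalization, and per the submitters' processing notes used FastQC 0.11.9, STAR 2.5.4b and featureCounts 1.6.0. Those notes name 2 genome builds, GRCm38 and GRCm39, without roles, so no gene coordinates from the files are given, and the strand setting is not given in the sources used here. Reads of overlapping or near-identical genes may therefore be shared between names. The deposited values of 8 of the 17 libraries are in another unit than independent counts: they repeat another library of their group, with 46.6% to 96.4% of the values of genes with 500 or more counts lying 1 to 10 above it, and mock library 2 at 5.5 weeks is one of them. It was used only in alternatives.

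Of 55414 identifiers, 52081 (94%) were named by GENCODE release M21. After filterByExpr, with a minimum count of 10, and TMM scaling, 16086 genes entered the robust quasi-likelihood F test of edgeR 4.0.16 in R 4.3.3, with 3 residual and a median of 8.64 prior degrees of freedom. DESeq2 1.42.0 and limma-voom 3.58.1 were alternatives, beside other scaling, filters, dispersion, libraries and a replicate block. The script was tested on simulated counts. Gene lists (29 functional, 15 of cell type markers), members and motifs were chosen with earlier results of these data known. Lists are described by counts and medians without a set test.

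Named genes are the 15 risen and 15 fallen genes with the largest change among called genes with at least 10 CPM in the higher group, up to 4 called members and up to 3 abundant uncalled members of each list, Rpl22, the 10 most abundant genes, and the 5 most abundant called genes in each direction. The genes named outside this rule, after their values were seen, are Apod, Bmp4, Bst2, C1qc, Col1a1, Col3a1, Csf1r, Cxcl5, Cybb, Fdft1, Fgfr3, Hes5, Ifi47, Ifit3, Ifit3b, Ifitm3, Iigp1, Il23a, Il6st, Irf8, Irgm1, Lats2, Msmo1, Myo10, Nfasc, Oasl2, Pdgfra, Scd3, Serpinf1, Slc6a11, Spp1, Tgm1, Timp1, Timp4 and Ugt8a, with those named in the observations and for the other weeks. Promoter sequences come from RefSeq on GRCm38.p6. Some genes are not reported here, although they stay in the tests and in the counts of each list.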

Additional observations from a re-analysis of the deposited data

How the results depend on the processing

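The 173 risen and 63 fallen genes depended on the libraries and filters, and no called gene that is named changed sign under any alternative run. Leaving out 1 library at a time gave 49 to 189 risen and 16 to 85 fallen genes; with a mock library left out, the lone mock library is assumed to vary like the cuprizone libraries. Without a filter on low counts edgeR called 381 and 162 genes, and with a filter of 1 CPM in all 5 libraries 100 and 36. Using all 6 libraries as deposited gave 314 risen genes. A fold change of at least 2 beside the threshold left 25 fallen genes. The other alternatives (RLE size factors, no robust dispersion, DESeq2, limma-voom, the mean of mock 1 and 2, and the 9 libraries of all weeks) gave 154 to 248 risen and 54 to 88 fallen genes. With the replicate number as a block, edgeR called 481 and 269 genes. The numbers were not taken to pair the mice, since the labels give them only as replicates of a group. Cuprizone 2 also has no partner among the mock libraries used. Deviations of same-numbered libraries from their group mean correlated at 0.123 for replicate 1 and -0.126 for replicate 3. These values cannot decide on pairing, because with 2 mock libraries the deviations of 1 are the mirror image of the other. Summed over 259 genes, those of the naming rule and 40 named outside it, and over all alternatives, a call was lost 265 times and gained 72 times. Under the block the call of Cd74 ended (edgeR adjusted p = 0.0556). The cause of these differences was not tested. The left-out fits also held fewer libraries, and the fit with the 1 CPM filter fewer genes. Depth limits the rarest genes: Tgm1, Timp1, Steap4, Clec7a and Itgax had 3 counts or fewer in each mock library. Such genes passed the filter only through the cuprizone libraries, so they could be tested only where cuprizone was higher.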

Other observations

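Several fallen genes carry provisional names, and those given here were picked after their values were seen. Of the 63 fallen genes, 13 (20.6%) have a Gm or Rik name, against 5 of the 173 risen genes (2.89%) and 12.1% of all genes tested. Gm42756 had 5.16 and 7.02 CPM in mock and 0.372, 0.542 and 0.691 CPM in cuprizone (log2 fold change -3.51 ± 0.28, edgeR adjusted p = 9.71e-05). C030029H02Rik had 6.75 and 7.83 CPM in mock and 1.82, 1.94 and 1.77 CPM in cuprizone (log2 fold change -1.98 ± 0.20, edgeR adjusted p = 0.000371). A230009B12Rik had 3.91 and 6.05 CPM in mock and 0.676, 1.08 and 0.652 CPM in cuprizone (log2 fold change -2.65 ± 0.29, edgeR adjusted p = 0.00098). All 3 were called in every left-out fit, as were 6 fallen genes in all, and every cuprizone library lay below both mock libraries. In the single 5-week and 7-week library pairs Gm42756 had 3.21 CPM in mock and 0.241 CPM in cuprizone, and 7.08 and 1.99 CPM. Such names can overlap better known genes, and without the strand setting of the counting the source of these reads cannot be told apart.

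Antigen presentation genes outside the lists were also named after their values were seen. H2-D1, a class I histocompatibility gene, had 119 and 115 CPM in mock and 199, 244 and 177 CPM in cuprizone (log2 fold change 0.82 ± 0.14, edgeR adjusted p = 0.0114). B2m, its light chain, had 71.9 and 87.4 CPM in mock and 107, 132 and 135 CPM in cuprizone (log2 fold change 0.65 ± 0.14, edgeR adjusted p = 0.0377). Psmb8, a subunit of the immunoproteasome that cuts proteins for presentation, had 3.08 and 4.05 CPM in mock and 8.38, 10.8 and 8.94 CPM in cuprizone (log2 fold change 1.39 ± 0.20, edgeR adjusted p = 0.00596). The cuprizone libraries lay above both mock libraries in all 3. H2-D1 was no longer called without mock 1 or mock 3 (0.0926 and 0.113). B2m was no longer called without mock 1, mock 3, cuprizone 2 or cuprizone 3 (0.204, 0.0717, 0.0596 and 0.135) and under the 1 CPM filter (0.0572). Psmb8 was no longer called without mock 1 (0.0791). H2-D1 has close copies among the other class I genes, which may share its reads.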
